A study of Mus musculus with 18 samples.

Results

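Mesenchymal progenitors are recognised by a panel of surface proteins, and RNA of 10 genes of that panel was followed here in *Atrx* WT and *Atrx* KO cells: *Cd34*, *Eng*, *Pdgfra*, *Pdgfrb*, *Ly6a*, *Thy1*, *Nt5e*, *Cd44*, *Mcam* and *Vcam1*. They were found by matching the Entrez identifiers of both count tables to gene symbols, and all 10 were among the 24100 genes that each table listed. The cells were C3H/10T1/2, a mouse mesenchymal progenitor cell (MPC) line grown in normal medium without differentiation cues. Cas9 had been introduced transiently with sgRNAs against *Atrx*, which encodes a chromatin remodeler, and single GFP-positive cells had been sorted. Each KO group is 1 clone, G7 for the guide sg5 and B10 for the guide sg6, and the *Atrx* WT group is the isogenic line given the Cas9 vector without a guide. RNA of each line was sequenced in 3 polyA-selected and 3 rRNA-depleted libraries. The 3 libraries are replicates of a single line, the labels do not say that they came from separate cultures, and what a guide did cannot be told apart from what else differs between the lines.

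These proteins do different work on the cell surface. Some are receptors for growth factors, some are co-receptors, some bind matrix or other cells, and some are anchored by a lipid and have roles that are less well defined. As a panel they are used to sort stromal progenitors from mixed tissue, although none of them is found on progenitors alone.

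Library depth differed between the lines. The polyA libraries held 27544833 to 235346363 counts, and every sg5 library (161036799 to 235346363) was deeper than every WT and sg6 library, so depth and the sg5 clone cannot be told apart in the polyA data other than by thinning the counts. The rRNA-depleted libraries held 20135336 to 33187136 counts, of which 84.5% to 89.6% fell on genes and the rest on transposable element loci. Levels are given as CPM, the reads of a gene relative to the total of its library on the usual per-million scale, with the total adjusted by the TMM factors of edgeR. The WT, sg5 and sg6 libraries had 276 to 328, 114 to 138 and 122 to 141 CPM of *Atrx* by polyA. By rRNA depletion they had 185 to 222, 58.4 to 107 and 72.7 to 96.6 CPM. These levels set WT apart from the clones in both kinds of library. The ranges of sg5 and sg6 overlapped, so *Atrx* RNA cannot show whether libraries of the clones were exchanged. The 10 fibroblast and mesenchyme markers summed to 42950 to 66905 CPM over the 9 polyA libraries, against 5.90 to 18.6 CPM for 10 endothelial, 9.02 to 11.9 for 10 haematopoietic and 0.385 to 6.29 for 8 epithelial markers. *Cldn5*, *Adgre1* and *H2-Aa*, which mark endothelium, macrophages and antigen-presenting cells, had no count in any polyA library. By rRNA depletion each had some reads, with group means of up to 0.0302 (*Cldn5*, sg5), 0.0414 (*Adgre1*, sg6) and 0.0246 CPM (*H2-Aa*, sg5). Other markers of these lists did have polyA reads. The haematopoietic marker *Cd14* had means of 9.07, 8.995 and 8.74 CPM (WT, sg5, sg6). The endothelial marker *Vwf* had 2.78, 2.45 and 1.32 CPM.

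A gene was called changed when its log2 fold change was beyond 1 with an adjusted p below 0.05 in edgeR's quasi-likelihood test, the Benjamini-Hochberg adjustment being made over all features tested. All 10 genes passed the filter on low counts in the polyA libraries and 9 of 10 in the rRNA-depleted libraries, where *Nt5e* had 2 to 13 counts in a library. In the polyA libraries, 3 of 10 were called in sg5 versus WT (1 higher and 2 lower), beside 10.1% of all 15480 genes tested (3.18% higher and 6.96% lower). In sg6 versus WT, 4 of 10 were called (3 higher and 1 lower), beside 11.2% of all genes (3.64% and 7.54%). Between the clones, 2 of 10 were called (1 higher and 1 lower in sg5), beside 2.61% of all genes (1.36% and 1.25%). By the adjusted p alone, whatever the size of the change, 6 of 10 passed in sg5, 7 in sg6 and 2 between the clones, beside 27%, 30.7% and 4.79%. In the rRNA-depleted libraries 1 of 9 was called in sg5 (higher), beside 7.35% of the 13303 genes tested (3.04% higher and 4.31% lower). There 3 of 9 were called in sg6 (2 higher and 1 lower), beside 5.74% (2.16% and 3.59%), and 1 of 9 between the clones (lower in sg5), beside 1.48% (0.556% and 0.925%). Only *Eng* was called in both clones in the same direction, and it was so in both kinds of library. The median log2 fold change of the 10 genes was -0.06 in sg5 and -0.34 in sg6 by polyA, against -0.0024 and -0.0061 over all genes tested. By rRNA depletion the median of the 9 tested was -0.24 in sg5 and 0.20 in sg6, against 0.080 and 0.038 over all genes. The sg6 median thus had opposite signs in the library kinds.

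**Figure D1:**
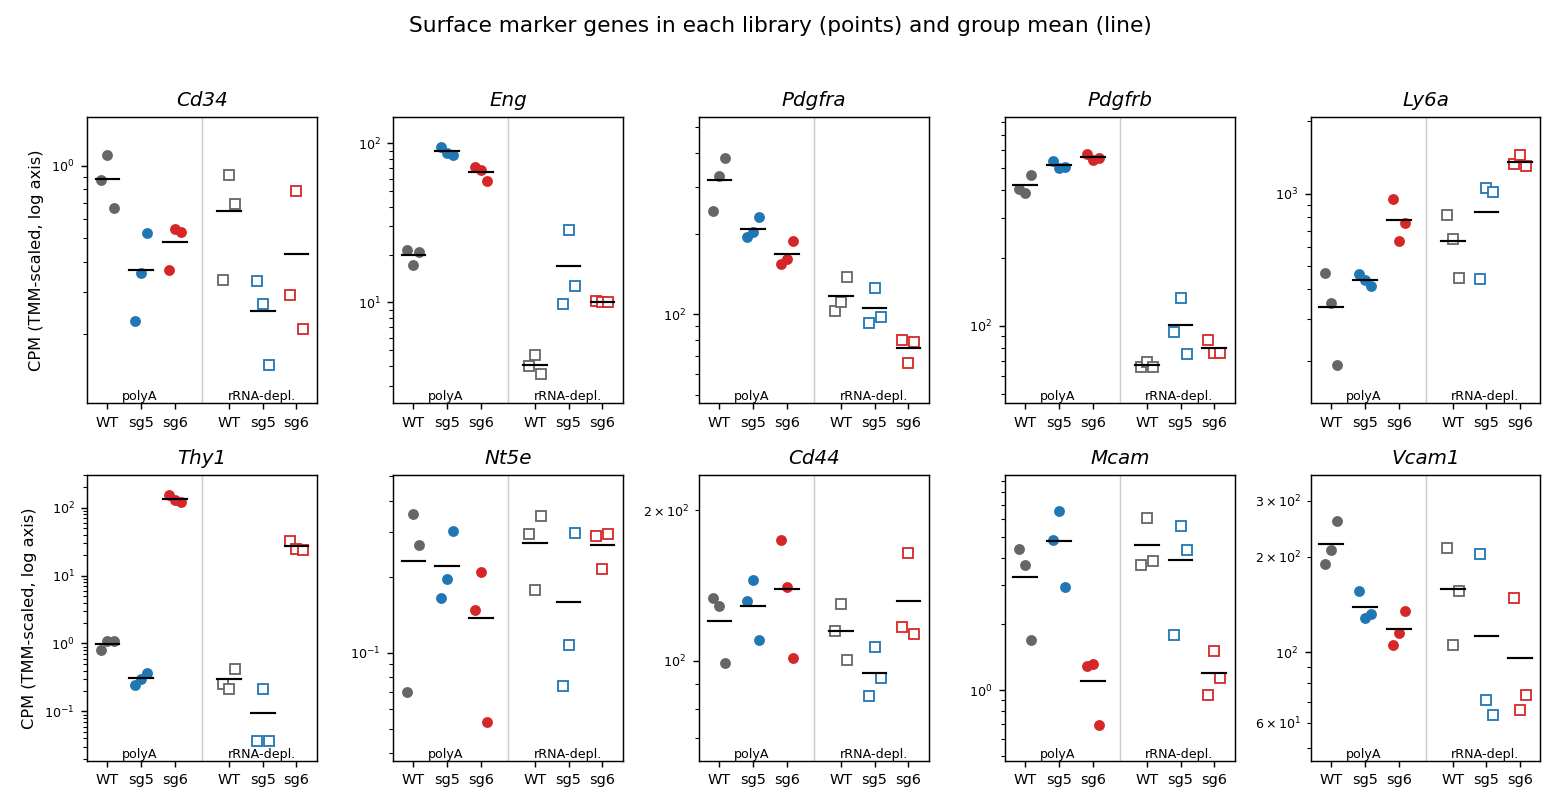
Level of each gene in CPM (log axis) in each library, with filled circles for polyA and open squares for rRNA-depleted libraries, grey for WT, blue for sg5 and red for sg6, and a black line at the mean of 3 libraries. *Thy1* in sg6 (119 to 154 CPM by polyA) and *Eng* in both clones stand clear of WT, while the groups of *Cd44* overlap in the polyA libraries.

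The promoters of the genes that changed, for which the RefSeq table of GRCm38.p6 holds a sequence, are shown to let the reader see how unlike they are. The 250 bases before the RefSeq start are given for *Eng* (chr2:32646345-32646594, plus strand), *Mcam* (chr9:44134408-44134657, plus strand) and *Cd34* (chr1:194938571-194938820, plus strand). They read 5′ to 3′ as follows, with capitals at each AGGAAG, the kind of site that ETS factors bind, and each GGGCGG, the GC box, on either strand.
Eng: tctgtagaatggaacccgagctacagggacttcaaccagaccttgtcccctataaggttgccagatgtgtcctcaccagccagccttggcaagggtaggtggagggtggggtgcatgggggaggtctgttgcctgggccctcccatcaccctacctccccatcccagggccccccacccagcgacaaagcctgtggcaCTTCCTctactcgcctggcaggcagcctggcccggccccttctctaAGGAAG
Mcam: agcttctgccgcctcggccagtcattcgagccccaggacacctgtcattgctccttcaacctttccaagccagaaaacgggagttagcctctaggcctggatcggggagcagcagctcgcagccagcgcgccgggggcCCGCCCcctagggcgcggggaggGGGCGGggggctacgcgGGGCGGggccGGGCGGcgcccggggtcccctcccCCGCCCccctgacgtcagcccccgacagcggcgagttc
Cd34: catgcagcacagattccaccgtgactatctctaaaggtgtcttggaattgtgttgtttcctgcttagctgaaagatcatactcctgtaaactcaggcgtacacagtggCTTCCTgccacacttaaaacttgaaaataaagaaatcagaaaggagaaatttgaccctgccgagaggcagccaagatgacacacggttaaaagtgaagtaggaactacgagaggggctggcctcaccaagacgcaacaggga

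*Eng* holds 2 AGGAAG matches and no GC box, *Mcam* holds 5 GC boxes and no AGGAAG, and *Cd34* holds 1 AGGAAG. Of 32851 RefSeq promoters cut to the same length, 29.5% hold an AGGAAG and 32.7% a GC box. *Mcam* has 25 CG dinucleotides in its 250 bases, more than 89.3% of these promoters, against 4 in *Eng* and 6 in *Cd34*, where the median promoter has 6. The letters are a description of the windows, and no binding was measured here. GENCODE starts *Mcam* at 44134469, inside its window, and all 5 GC boxes lie past that start. The window of *Cd34* also runs past its GENCODE start, 194938819. For these genes the windows are thus upstream of the RefSeq start only. The other members with an entry were *Pdgfra*, *Nt5e* and *Cd44*, and entries for *Thy1*, *Ly6a* and *Vcam1* were not found in the table.

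*Eng* encodes endoglin, a co-receptor for TGF-beta and BMP ligands that is also known as CD105. It lies on chromosome 2 from 32646595 to 32682669 on the plus strand of GRCm38. By polyA it was at 21.4, 17.1 and 20.9 CPM in the WT libraries, 95.3, 87.1 and 84.8 CPM in sg5 and 70.8, 68.3 and 58.0 CPM in sg6. Every library of both clones was above every WT library. Its log2 fold change was 2.17 ± 0.11 (SE, n = 3 against 3) in sg5, a 4.51-fold rise with an adjusted p of 4.79e-06, and 1.73 ± 0.11 in sg6, a 3.33-fold rise with an adjusted p of 1.33e-05. Fewer cells with a transcript and less transcript per cell cannot be told apart in bulk RNA, here or for any gene below.

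In the rRNA-depleted libraries *Eng* was at 3.95, 4.64 and 3.56 CPM in WT, 9.72, 28.7 and 12.7 CPM in sg5, and 10.1 CPM in each sg6 library. The clones were again above WT in every library, with a log2 fold change of 2.07 ± 0.33 in sg5 (adjusted p = 0.00228) and 1.32 ± 0.32 in sg6 (adjusted p = 0.0450). The sg6 call rested on the full set of libraries: it was lost without WT replicate 1, 2 or 3 (adjusted p = 0.126, 0.0844 and 0.222) and without sg6 replicate 1, 2 or 3 (0.0691, 0.0761 and 0.0966), although the log2 fold change of *Eng* stayed at 1.22 or above in every such fit. sg5 was higher than sg6 by 0.44 ± 0.11 on the log2 scale by polyA, which did not pass (adjusted p = 0.0569). *Fpgs*, a folate enzyme gene on the opposite strand that shares 61 exon bases (1.51%) with *Eng*, had 18.5, 19.4 and 18.6 CPM by polyA (WT, sg5, sg6).

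The TGF-beta and BMP pathway was read through a list of its receptors, ligands and targets. Of these 21 genes, 19 were tested by polyA, of which 1 rose and 1 fell in sg5, and 2 rose and 2 fell in sg6. For this list and those below, the share of all genes called was 10.1% in sg5 and 11.2% in sg6 by polyA. By rRNA depletion it was 7.35% and 5.74%. No share over all genes was taken for the unadjusted p, so counts by it have nothing to be set beside. The median log2 fold change of the 19 was 0.45 in each clone. *Acvrl1* encodes ALK1, the type I receptor with which endoglin is best known to act in endothelium, and it fell in both clones, by 2.27 (adjusted p = 0.00867) and 3.24 (adjusted p = 0.00325) on the log2 scale. Its levels were low, at 1.0 ± 0.58, 0.212 ± 0.059 and 0.104 ± 0.080 CPM (WT, sg5, sg6, mean ± SD, n = 3). *Smad7*, an inhibitor of TGF-beta signalling that is itself a target of the pathway, rose by 1.35 (adjusted p = 0.0311) in sg5 and 1.93 (adjusted p = 0.00605) in sg6. *Tgfbr3*, the betaglycan co-receptor, and *Smad6*, an inhibitor of BMP signalling, passed in sg6, with log2 fold changes of -1.26 and 1.02, and were -0.94 and 0.74 in sg5 without passing. In the rRNA-depleted libraries edgeR called 0 of 18 in either clone, with 13 in sg5 and 8 in sg6 at an unadjusted p under 0.05, and DESeq2 called 1 in sg5 and 0 in sg6. *Smad7* was 1.09 and 0.96 there (adjusted p = 0.272 and 0.452), and *Acvrl1* had too few reads to be tested.

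**Figure D2:**
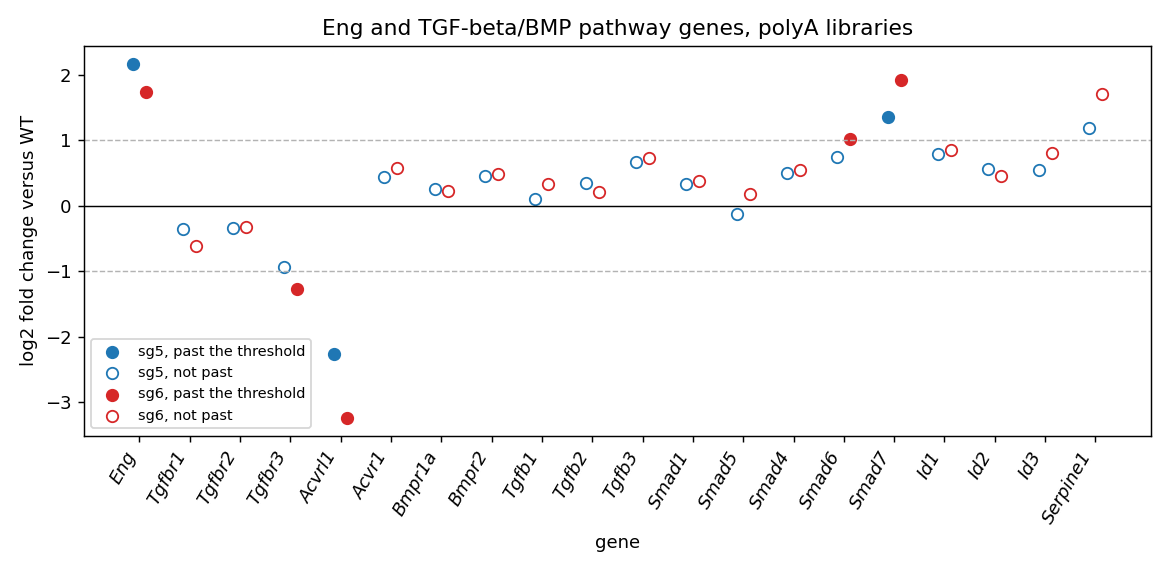
Log2 fold change of *Eng* and of the 19 tested TGF-beta and BMP pathway genes against WT in the polyA libraries, blue for sg5 and red for sg6, with filled points past the threshold and dashed lines at a log2 fold change of 1 in either direction. *Eng* and *Smad7* are filled above the line and *Acvrl1* below it in both clones.

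Endothelial markers other than *Eng* did not share 1 direction. *Tek*, the angiopoietin receptor, rose in both clones by polyA (log2 fold change 3.54 and 3.24, adjusted p = 1.26e-05 and 1.95e-05), and *Pecam1* fell (-1.37 and -1.22, adjusted p = 0.0113 and 0.0269). By rRNA depletion *Tek* rose in sg5 (1.76, adjusted p = 0.0352) and did not pass in sg6 (1.60, adjusted p = 0.0671), and *Pecam1* was not tested. The summed level of the 10 endothelial markers ran over 5.90 to 7.0, 13.4 to 18.6 and 11.9 to 13.5 CPM (WT, sg5, sg6), of which *Tek* made up means of 0.962, 11.5 and 9.33 CPM. *Cdh5*, the cadherin of endothelial junctions, had 0.221, 0.199 and 0.188 CPM by polyA, and *Cldn5* had no count there. Of the 7 endothelial markers tested, 1 rose and 1 fell in sg5, and 1 rose and 3 fell in sg6, the others that fell being *Vwf* and *Egfl7*. The part of endothelial cells in the level of *Eng* was not tested.

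Over the 9 polyA libraries, the pattern of *Eng* was most like that of *Gm3002*, *Aim2* and *Efnb2* among 11519 genes compared. Likeness was the root-mean-square difference of log2 CPM centred on each gene's mean, and it was 0.161, 0.174 and 0.180. *Efnb2*, which encodes the ligand ephrin-B2, had mean levels of 7.37, 31.8 and 26.5 CPM (WT, sg5, sg6). These genes were picked for their likeness, so their levels are a description.

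*Thy1* moved in opposite directions in the clones. It encodes CD90, a lipid-anchored protein of the immunoglobulin superfamily found on fibroblasts, neurons and T cells, and lies on chromosome 9 from 44043384 to 44048579 on the plus strand. By polyA, WT had 0.803, 1.1 and 1.09 CPM, sg5 had 0.246, 0.305 and 0.370 CPM, and sg6 had 154, 128 and 119 CPM. The sg6 libraries held 6717 to 10406 reads of the gene, while WT held 23 to 96 and sg5 held 39 to 70 in deeper libraries. The 3 groups did not overlap. *Thy1* rose in sg6 by 7.03 ± 0.19 on the log2 scale, which is 131-fold (adjusted p = 7.64e-08), and fell in sg5 by 1.73 ± 0.19, which is 3.32-fold (adjusted p = 0.000268). The difference between the clones was -8.76 ± 0.20 (sg5 minus sg6, adjusted p = 3.29e-08), which is 434-fold.

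The rRNA-depleted libraries gave the same order. Reads of *Thy1* numbered 6, 6 and 16 in WT, 1, 4 and 1 in sg5, and 792, 683 and 563 in sg6, which is 0.252, 0.212 and 0.428 CPM, then 0.0370, 0.214 and 0.0371 CPM, then 32.8, 24.4 and 23.7 CPM. sg6 was far above both other groups, with a log2 fold change of 6.43 ± 0.36 against WT (adjusted p = 4.42e-07) and a difference between the clones of -8.25 ± 0.43 (sg5 minus sg6, adjusted p = 3.77e-07). Since sg5 holds 6 reads in all, the ratio of sg6 to sg5 was known only to 325-fold with a 95% exact interval of 149 to 888, which covers counting error only. The sg5 group overlapped WT, and the log2 fold change of -1.82 ± 0.57 did not pass (adjusted p = 0.107). Of the 6 sg5 reads, replicate 2 holds 4, and without that library it was -2.85 with an adjusted p of 0.0307.

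The 3 genes most like *Thy1* over the polyA libraries were *Stmn2*, *Pdlim1* and *Perp*, at root-mean-square differences of 1.03, 1.46 and 1.69. These were less alike than the genes nearest to *Eng*. *Stmn2*, a microtubule regulator known from neurons, had mean levels of 0.183, 0.269 and 42 CPM (WT, sg5, sg6). *Perp*, a component of desmosomes, had 0.265, 0.927 and 45.4 CPM.

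*Mcam* changed with *Thy1* in the sg6 clone but the other way. It encodes CD146, an adhesion molecule of pericytes, smooth muscle and endothelium, and lies 85.889 kb downstream of *Thy1* on the same strand (chromosome 9, 44134469 to 44142727), with 9 annotated genes between. By polyA it was at 4.4, 3.70 and 1.69 CPM in WT, 4.84, 6.57 and 2.94 in sg5, and 1.29, 1.32 and 0.692 in sg6. The third library of each group was the lowest. sg6 lay below WT without overlap, and its log2 fold change was -1.56 ± 0.43, a 2.94-fold fall (adjusted p = 0.0222). That call was lost without WT replicate 1 or 2 or sg6 replicate 3, with *Mcam* at an adjusted p of 0.0537, 0.0738 and 0.0687. In sg5 *Mcam* overlapped WT (0.56 ± 0.40, adjusted p = 0.339).

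By rRNA depletion *Mcam* was at 3.70, 6.09 and 3.88 CPM in WT, 1.77, 5.56 and 4.34 in sg5, and 0.952, 1.5 and 1.14 in sg6. sg6 was below every other library, with a log2 fold change of -1.92 ± 0.39 against WT (adjusted p = 0.0158), which was lost without WT replicate 2 or sg6 replicate 1 or 3 (adjusted p for *Mcam* = 0.0811, 0.0576 and 0.0794). Between the clones, *Mcam* was higher in sg5 by 2.12 ± 0.42 on the log2 scale by polyA (adjusted p = 0.0219). This call did not hold without sg5 replicate 1 or 2 or any sg6 replicate (adjusted p = 0.0561, 0.0718, 0.0590, 0.0735 and 0.0846). By rRNA depletion the difference was 1.68 ± 0.40 and did not pass (adjusted p = 0.115), and it passed for *Mcam* without sg5 replicate 1 (2.03, adjusted p = 0.00633). In the fit blocked on replicate, *Mcam* passed between the clones by rRNA depletion (1.63, adjusted p = 0.0163).

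*Mcam* is often counted with the markers of pericytes and smooth muscle. Of 7 of these tested by polyA, 2 rose and none fell in each clone. These were *Acta2*, the smooth muscle actin, with log2 fold changes of 1.39 and 1.57 (adjusted p = 0.000112 and 4.85e-05), and *Tagln*, an actin-binding protein, with 1.79 and 1.83 (adjusted p = 0.00116 and 0.000917). By rRNA depletion *Acta2* rose in both clones (1.90 and 1.84, adjusted p = 0.00513 and 0.00738), and *Tagln* did not pass (1.73 and 1.05, adjusted p = 0.0673 and 0.386). Their median over the 7 was -0.06 in sg5 and 0.11 in sg6. The summed level of the 10 ran over 833 to 919, 1420.1 to 1699.8 and 1596 to 1898 CPM (WT, sg5, sg6). The part of such cells in the level of *Mcam* was not tested.

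*Ly6a* encodes SCA-1, the lipid-anchored antigen most used to isolate mouse progenitors, and was the highest of the panel per kb of transcript. It lies on chromosome 15 from 74994877 to 74998031 on the minus strand. By polyA it was at 468, 350.5 and 192 CPM in WT, 461, 434 and 413 CPM in sg5, and 953, 632 and 754 CPM in sg6. WT spread widely and sg5 overlapped it (log2 fold change 0.37 ± 0.28, adjusted p = 0.356), whereas each sg6 library was above the other 6. *Ly6a* rose in sg6 by 1.21 ± 0.28 on the log2 scale, which is 2.32-fold (adjusted p = 0.0102). Without WT replicate 3 the log2 fold change of *Ly6a* was 0.93 (adjusted p = 0.00713), under the size that a call needs.

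By rRNA depletion *Ly6a* was at 812, 644 and 447 CPM in WT, 439.8, 1051 and 1019.6 CPM in sg5, and 1324, 1449 and 1308 CPM in sg6. The sg6 libraries were again above all others, with a log2 fold change of 1.1 ± 0.28 and an adjusted p of 0.0525, just outside the threshold. It passed in the fits without WT replicate 1 (1.36, adjusted p = 0.0463) and without sg5 replicate 1, 2 or 3 (1.13, 1.12 and 1.12, adjusted p = 0.00207, 0.0493 and 0.0443). In the fit blocked on replicate, *Ly6a* passed as well (1.09, adjusted p = 0.0466). The clones did not differ past the threshold (sg5 minus sg6, -0.84 ± 0.28 by polyA, adjusted p = 0.146, and -0.70 ± 0.28 by rRNA depletion, adjusted p = 0.526).

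Of the 31-base words in the transcripts of *Ly6a*, 31.9% also occur in another gene, mainly *Ly6c1*, so counts within the Ly6 family can be misassigned. *Ly6c1* had 52.7 ± 13.1, 49.3 ± 4.2 and 95.4 ± 14.3 CPM by polyA (WT, sg5, sg6, mean ± SD, n = 3). Its log2 fold change in sg6 was 0.86 with an adjusted p of 0.00675, under the size that a call needs. Of 6 Ly6 family genes tested in addition to *Ly6a*, 2 rose in sg6 (*Ly6e* and *Ly6i*, 1.02 and 1.2) and 1 fell (*Ly6f*, -1.40). In sg5 edgeR and DESeq2 called 0 of these 6 by polyA, with 0 at an unadjusted p under 0.05. The median of the 6 was 0.90 in sg6 and -0.08 in sg5. By rRNA depletion 4 were tested. *Ly6e* fell in sg5 there (-1.85, adjusted p = 0.00455) and was 0.45 in sg6 (adjusted p = 0.615). In sg6 edgeR and DESeq2 called 0 of 4, with 2 at an unadjusted p under 0.05, and between the clones *Ly6c1* and *Ly6e* were called lower in sg5.

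*Pdgfra* and *Pdgfrb* encode the receptor tyrosine kinases for platelet-derived growth factors, and they differed from WT in opposite directions by less than the size set for a call. *Pdgfra* lies on chromosome 5 from 75152292 to 75198215 and *Pdgfrb* on chromosome 18 from 61045150 to 61085061, both on the plus strand. By polyA *Pdgfra* was at 242, 328 and 384 CPM in WT, 194, 203 and 230.2 in sg5, and 154, 161 and 188 in sg6. Both clones were below every WT library, by 0.61 ± 0.16 in sg5 (log2 fold change -0.61, adjusted p = 0.0213) and by 0.92 ± 0.16 in sg6 (-0.92, adjusted p = 0.00249). In sg6 *Pdgfra* reached a call without WT replicate 1 (-1.08, adjusted p = 0.000467) or sg6 replicate 3 (-1.01, adjusted p = 0.00525). By rRNA depletion it was at 103, 111 and 138 CPM in WT, 92.6, 125 and 97.3 in sg5, and 80.0, 66.0 and 79.0 in sg6. sg5 overlapped WT (-0.16 ± 0.17, adjusted p = 0.701), and sg6 did not (-0.64 ± 0.17, adjusted p = 0.0580).

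*Pdgfrb* was at 404, 389 and 465 CPM in WT, 535, 497 and 507 in sg5, and 578, 541 and 550.2 in sg6 by polyA. Every clone library was above WT, by 0.29 ± 0.09 on the log2 scale in sg5 (adjusted p = 0.0346) and 0.41 ± 0.09 in sg6 (adjusted p = 0.00686). By rRNA depletion it was at 66.0, 69.0 and 66.2 CPM in WT, 94.3, 133 and 75.5 in sg5, and 86.8, 75.9 and 76.1 in sg6. Every clone library was again above every WT library while the clones overlapped each other, and neither difference from WT passed (0.59 ± 0.18, adjusted p = 0.103, and 0.25 ± 0.18, adjusted p = 0.672).

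Of their 4 ligand genes, 1 rose in sg5 and 2 rose in sg6 by polyA. *Pdgfd*, whose product signals through the beta receptor, rose in both (log2 fold change 1.38 and 1.03, adjusted p = 0.000550 and 0.00222) and had 8.30 ± 1.40, 21.6 ± 3.9 and 17.0 ± 2.4 CPM (WT, sg5, sg6). *Pdgfb*, whose product binds both receptors, passed in sg6 (1.44, adjusted p = 0.00253) and was 0.86 in sg5 (adjusted p = 0.0307). The median of the 4 was 0.88 in sg5 and 1.01 in sg6. In the rRNA-depleted libraries edgeR called 0 of 4 in either clone, with 2 in each at an unadjusted p under 0.05, and DESeq2 called 1 in sg5 and 0 in sg6. *Pdgfd* was 0.99 and 0.65 there (adjusted p = 0.0209 and 0.173).

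*Vcam1*, *Cd44* and *Cd34* bind other cells or matrix. *Vcam1* encodes a ligand of the integrins of leukocytes and lies on chromosome 3 from 116109949 to 116129688 on the minus strand. By polyA it was at 190.2, 210.4 and 259 CPM in WT, 156, 128 and 132 in sg5, and 105, 115 and 135 in sg6. Both clones were below every WT library, with a log2 fold change of -0.66 ± 0.14 in sg5 (adjusted p = 0.00779) and -0.89 ± 0.14 in sg6 (adjusted p = 0.00150), each under the size that a call needs. By rRNA depletion it was at 213, 106 and 156 CPM in WT, 203, 70.7 and 63.6 in sg5, and 148, 66.0 and 73.4 in sg6. Replicate 1 was the highest in each group, the groups overlapped, and neither difference passed (-0.49 ± 0.42, adjusted p = 0.611, and -0.72 ± 0.42, adjusted p = 0.536).

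Of 7 integrin partners and related adhesion molecules, 5 were tested by polyA, of which 1 rose and 1 fell in sg5 and 1 rose in sg6. *L1cam*, an adhesion molecule known from axons, rose in both clones (log2 fold change 1.17 and 1.67, adjusted p = 0.0164 and 0.00264) and had 163 ± 65, 366 ± 65 and 518 ± 124 CPM (WT, sg5, sg6). *Itgb7*, an integrin subunit that pairs with the alpha 4 chain, fell in sg5 (-1.25, adjusted p = 0.0235) and was -0.82 in sg6 (adjusted p = 0.0976). The median of the 5 was -0.04 in sg5 and -0.22 in sg6. By rRNA depletion *L1cam* rose in both clones (1.83 and 1.71, adjusted p = 0.0028 and 0.00521) and *Itgb7* fell in sg5 (-1.99, adjusted p = 0.0398). *Alcam*, another adhesion molecule of the list, fell there in sg5 (-3.14, adjusted p = 0.000226) and was -0.70 in sg6 (adjusted p = 0.423).

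*Cd44* encodes the main receptor for hyaluronan and overlapped between all groups in the polyA libraries while standing above 90 CPM in each. It lies on chromosome 2 from 102811141 to 102901665 on the minus strand. WT had 133, 129 and 99.0 CPM, sg5 had 132, 145 and 110.2, and sg6 had 175, 141 and 102, with the third library lowest in each group. The log2 fold change was 0.10 ± 0.20 in sg5 (adjusted p = 0.747) and 0.21 ± 0.20 in sg6 (adjusted p = 0.465). By rRNA depletion it was at 115, 129.8 and 100.2 CPM in WT, 85.0, 107 and 92.6 in sg5, and 117, 165 and 113 in sg6, with -0.28 ± 0.17 (adjusted p = 0.458) and 0.20 ± 0.17 (adjusted p = 0.744). Of 9 genes tested that were listed with *Cd44*, mostly genes that make, break or bind hyaluronan but also *Spp1*, 1 fell in each clone by polyA. This was *Cemip*, a hyaluronan-degrading protein (-1.70 and -1.94, adjusted p = 0.00456 and 0.00225). The median of the 9 was -0.30 and -0.40. By rRNA depletion *Cemip* fell in sg5 (-3.40, adjusted p = 0.0130) and did not pass in sg6 (-1.91, adjusted p = 0.130).

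*Cd34* encodes a sialomucin of haematopoietic, endothelial and stromal progenitors and was expressed at a low level. It lies on chromosome 1 from 194938819 to 194961279 on the plus strand. The 9 polyA libraries held 25 to 97 reads each. They gave 0.873, 1.11 and 0.667 CPM in WT, 0.227, 0.358 and 0.524 in sg5, and 0.370, 0.546 and 0.533 in sg6. Both clones were below WT without overlap. On the opposite strand *Gm16897*, which shares 148 exon bases (2.03%) with *Cd34*, had 0.244, 0.203 and 0.278 CPM (WT, sg5, sg6). *Cd34* fell in sg5 by 1.27 ± 0.33 on the log2 scale, which is 2.42-fold (adjusted p = 0.0196), and the fold change in sg6 was -0.90 ± 0.35 (adjusted p = 0.0796). The sg5 call was lost without WT replicate 2 (-1.05, adjusted p = 0.0977) or sg5 replicate 2 (-1.25, adjusted p = 0.0641), and it was lost when every library was thinned to the total of the smallest (-1.5, adjusted p = 0.0820), all values being those of *Cd34*.

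By rRNA depletion *Cd34* had 8, 26 and 26 reads in WT, 9, 5 and 4 in sg5, and 7, 22 and 5 in sg6. That is 0.336, 0.921 and 0.695 CPM, then 0.333, 0.268 and 0.149, then 0.290, 0.787 and 0.210. Neither difference passed (-1.39 ± 0.59, adjusted p = 0.247, and -0.59 ± 0.55, adjusted p = 0.760). Of the 3 other genes of the CD34 family only *Podxl*, which encodes podocalyxin, was tested by polyA. It fell in sg5 (-3.92, adjusted p = 3.30e-05), where it had 0.0698 ± 0.023 CPM against 1.06 ± 0.30 in WT, and was -0.32 in sg6 (adjusted p = 0.382). By rRNA depletion *Podxl* did not pass in sg5, with a smaller difference of -0.66 (adjusted p = 0.388) and 0.654 ± 0.150 CPM against 1.04 ± 0.26 in WT.

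*Nt5e* encodes CD73, the enzyme that makes adenosine outside the cell, and was close to the limit of counting. It lies on chromosome 9 from 88327197 to 88372092 on the plus strand. Reads per polyA library numbered 2, 31 and 12 in WT, 26, 45 and 49 in sg5, and 10, 13 and 3 in sg6, which is 0.0699 to 0.355 CPM, 0.164 to 0.302 CPM and 0.0533 to 0.209 CPM. A difference was not detectable at this depth (-0.23 ± 0.48, adjusted p = 0.764 in sg5, and -0.89 ± 0.57, adjusted p = 0.269 in sg6). In the rRNA-depleted libraries the ranges were 0.177 to 0.348, 0.0739 to 0.297 and 0.215 to 0.295 CPM (WT, sg5, sg6). *Entpd1*, which encodes CD39, the ectoenzyme upstream of CD73, rose in both clones by polyA (1.28 and 3.87, adjusted p = 0.0397 and 0.000104) and had 0.118 ± 0.026, 0.286 ± 0.064 and 1.74 ± 0.61 CPM (WT, sg5, sg6). By rRNA depletion *Entpd1* rose in sg6 (3.22, adjusted p = 0.00459) but not in sg5 (-0.20, adjusted p = 0.925), with 0.190 ± 0.096, 0.181 ± 0.127 and 1.86 ± 0.93 CPM. Of 6 adenosine pathway genes tested by polyA, 2 rose in each clone and none fell. The second was the adenosine receptor gene *Adora2b* in sg5 (1.29, adjusted p = 0.00984) and *Entpd2* in sg6 (2.01, adjusted p = 0.0263). The median of the 6 was 0.74 and 0.54. By rRNA depletion edgeR and DESeq2 called 0 of 6 in sg5, with 3 at an unadjusted p under 0.05, and 1 in sg6. Neither *Adora2b* in sg5 (1.87, adjusted p = 0.149) nor *Entpd2* in sg6 (2.00, adjusted p = 0.384) passed there.

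**Figure D3:**
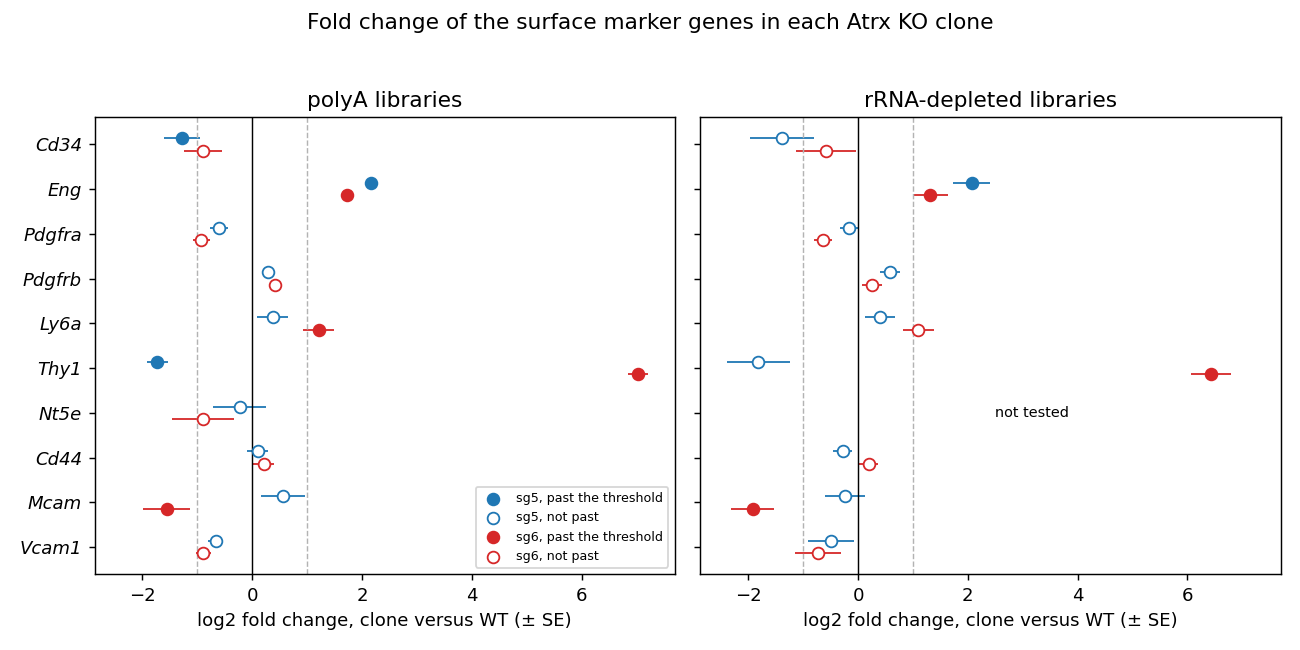
Log2 fold change against WT with its standard error for each gene in the polyA (left) and rRNA-depleted (right) libraries, blue for sg5 and red for sg6, filled where past the threshold and open where not, with dashed lines at a log2 fold change of 1 in either direction. *Eng* is filled in both clones in both panels, *Thy1* in sg6 reaches 7.03 and 6.43, and *Nt5e* was not tested on the right.

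The library kinds can be compared because they come from the same lines. The fold change of the 9 members tested in both had the same sign in 7 of 9 for sg5 and in 9 of 9 for sg6, the exceptions being *Cd44* and *Mcam* in sg5. In a test of the difference itself over 18 libraries, edgeR called 0 of 9 in either clone, with 0 at an unadjusted p under 0.05, beside 0.435% (sg5) and 0.161% (sg6) of 14945 genes. The differences (polyA minus rRNA-depleted log2 fold change) ran from -0.41 for *Pdgfra* to 0.82 for *Mcam* in sg5, with standard errors of 0.25 and 0.61, and from -0.30 for *Cd34* to 0.61 for *Thy1* in sg6, with standard errors of 0.67 and 0.39. Without overlap with WT were 6 of 10 members in sg5 and 8 of 10 in sg6 by polyA, beside 41.5% and 42.4% of all genes tested, and 3 of 9 and 6 of 9 by rRNA depletion, beside 36.3% and 31.3%. Between the clones 6 of 10 by polyA and 5 of 9 by rRNA depletion did not overlap, beside 25.4% and 18.8%.

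Levels can be set side by side between genes once they are divided by the length of the longest coding transcript in GENCODE. In WT polyA libraries the order of levels was *Ly6a* (353 ± 145 CPM per kb, SD, n = 3), *Pdgfrb* (77.3 ± 7.4), *Vcam1* (63.4 ± 10.3), *Pdgfra* (46.5 ± 10.5), *Cd44* (21.4 ± 3.3), *Eng* (5.78 ± 0.68), *Mcam* (1.09 ± 0.47), *Thy1* (0.575 ± 0.097), *Cd34* (0.346 ± 0.087) and *Nt5e* (0.0577 ± 0.0365). The libraries of *Pdgfrb* overlapped those of *Vcam1*, those of *Vcam1* overlapped those of *Pdgfra*, and those of *Mcam* overlapped those of *Thy1*. In sg5 *Eng* stood at 26.0 ± 1.6 CPM per kb, overlapping *Cd44* (23 ± 3.1), and *Thy1* (0.177 ± 0.036) overlapped *Cd34* (0.145 ± 0.058). In sg6 *Thy1* stood in the third place, against the eighth in WT and sg5, at 77.1 ± 10.4 CPM per kb, between *Pdgfrb* (103 ± 4) and *Vcam1* (34.2 ± 4.4), and it overlapped neither. In the WT rRNA-depleted libraries *Ly6a* was again the highest (664 ± 192 CPM per kb), and *Pdgfrb* stood in the fifth place at 12.4 ± 0.3, below *Vcam1* (45.6 ± 15.4), *Cd44* (20.5 ± 2.6) and *Pdgfra* (17.1 ± 2.7).

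**Figure D4:**
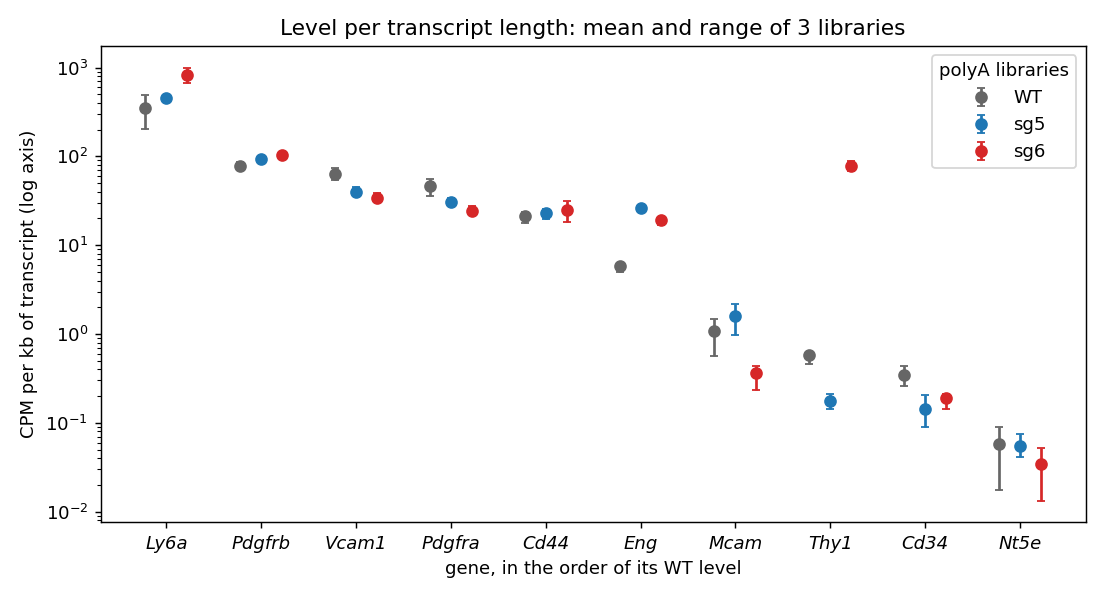
Level of each gene per kb of transcript in the polyA libraries (log axis), as the mean and range of 3 libraries, ordered by the WT level, grey for WT, blue for sg5 and red for sg6. The sg6 point of *Thy1* lies at 77.1 CPM per kb, above *Vcam1*, while its WT and sg5 points lie under 1.

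Outside the panel, 20 other mesenchymal progenitor markers were read in the same way, and 19 of them were tested by polyA. In each clone 1 rose and 3 fell, and the median log2 fold change was 0.08. *Itga11*, a collagen-binding integrin, rose in both by polyA (5.73 and 3.10, adjusted p = 3.60e-06 and 6.04e-05) and had 0.348 ± 0.132, 18.4 ± 1.45 and 2.97 ± 0.68 CPM (WT, sg5, sg6). By rRNA depletion *Itga11* rose in sg5 (3.24, adjusted p = 0.00411) and did not pass in sg6 (0.42, adjusted p = 0.876), with 0.173 ± 0.083 CPM in WT and 0.241 ± 0.119 in sg6. *Mme*, the endopeptidase CD10, fell in both (-1.31 and -2.20, adjusted p = 0.000127 and 8.24e-06) and had 632 ± 93, 256 ± 13 and 137 ± 16 CPM. By rRNA depletion *Mme* did not pass in either (-0.75 and -1.21, adjusted p = 0.252 and 0.0724). *Ngfr*, the receptor CD271, fell in both (-1.94 and -2.46, adjusted p = 0.000532 and 0.000341) and stood at 0.532 ± 0.042 CPM in WT, and it had too few reads to be tested by rRNA depletion. The third that fell by polyA was *Nes* in sg5 (-1.22, adjusted p = 0.00991) and *Etv1* in sg6 (-1.15, adjusted p = 0.0492). Of 17 tested by rRNA depletion, 1 rose and 3 fell in sg5, and 1 fell in sg6. *Etv1*, an ETS-family factor, fell there in both clones (-3.50 and -1.91, adjusted p = 1.34e-05 and 0.000832), and *Pi16* fell in sg5 (-2.43, adjusted p = 0.0250), as did *Alcam*, which is also on this list. Genes named here for 1 clone alone, in this list and those above, were chosen after their values were seen.

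Markers of other cell types are given for the identity of the cells. edgeR and DESeq2 called 0 of 10 fibroblast and mesenchyme markers in either clone by polyA, with 3 in sg5 and 6 in sg6 at an unadjusted p under 0.05, while their summed level ran over 42950 to 48478, 53515 to 57913 and 62163 to 66905 CPM (WT, sg5, sg6). Of 4 haematopoietic markers tested, *Csf1r*, a macrophage growth factor receptor, fell in sg5 (-1.63, adjusted p = 0.00807), and edgeR and DESeq2 called 0 in sg6, with 1 at an unadjusted p under 0.05. The level of *Csf1r* was low, at 0.411 CPM in WT and 0.133 in sg5. By rRNA depletion it was not tested, and sg5 had the higher mean (0.251 CPM in WT, 0.354 in sg5). Of 3 epithelial markers tested, 3 fell in sg5 and 2 in sg6, while DESeq2 called 2 lower in each clone. *Cdh1*, the epithelial cadherin, fell in both (-1.64 and -3.23, adjusted p = 0.00668 and 0.000307), as did *Krt14*, a basal keratin (-6.73 and -4.30, adjusted p = 0.000926 and 0.00543), which had 1.06 ± 0.63 CPM in WT, and *Krt8* fell in sg5 (-1.34, adjusted p = 0.0486). By rRNA depletion *Cdh1* (-3.82 and -3.18) and *Krt14* (-6.31 and -3.93) fell in both clones as well. *Krt8* was not tested there (0.133 CPM in WT, 0.117 in sg5), and by polyA it had 0.220 and 0.0888 CPM. The part of such cells in the levels of the panel was not tested.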

How the data were processed

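RNA of *Atrx* WT, sg5 and sg6 MPCs was measured in 9 polyA and 9 rRNA-depleted libraries, grouped by the sample labels. For polyA, the authors quantified reads with Salmon (version 0.8.2 in the submitters' processing notes) and deposited the expected count of each gene, which was rounded before testing (0 values changed). The rRNA-depleted table holds the counts that TElocal gave for genes and transposable element (TE) loci after alignment by STAR, as deposited without normalization. Both used mm10. The strand setting is not given in the sources used here, so reads of overlapping genes on opposite strands cannot be told apart. The members and lists were chosen with earlier results of these data known.

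Features were filtered with filterByExpr (minimum count 10, minimum total 15), scaled by TMM and tested with edgeR 4.0.16 in R 4.3.3, all 9 libraries of a kind in 1 fit, with the adjustment over 15480 genes (polyA) or 56086 genes and TE loci (rRNA-depleted). Standard errors are the log2 fold change divided by the root of the F statistic. The difference between library kinds was an interaction term over 18 libraries. p-values measure only the spread between these libraries, which may be technical. Replicates differed by more than counting noise (chi-square per gene 23.9 or above). The fits of sg5 versus WT and the interaction in sg5 were tried on simulated counts with 200 planted changes. edgeR found 179 of 200 by polyA and 78 of 200 by rRNA depletion, with 2 and 10 false calls. DESeq2 found 180 and 84, with 11 and 21 false calls. The interaction test found 152, with 7 false calls. Every planted change was larger than the log2 fold change of 1 that a call needs. The differences of the members between library kinds were all smaller than that, so the share found does not apply to them. The other contrasts and settings were not tried in this way. Alternatives were DESeq2 1.42.0, RLE factors, other filters and thresholds, glmTreat, only the 2 groups compared, genes alone, thinned counts, a replicate block and leaving out each library. The labels do not say what a replicate number marks. Deviations of libraries from their group means were correlated between groups. For sg5 with sg6 every same-numbered pair was above 0.1 (lowest r 0.277 by polyA and 0.174 by rRNA depletion). By rRNA depletion this also held for WT with sg6 (lowest 0.114). It did not hold for WT with sg5 (lowest 0.0257 and -0.229) or, by polyA, WT with sg6 (lowest 0.0983). Libraries of different numbers reached 0.251 by polyA and 0.555 by rRNA depletion, so whether the numbers mark pairs is uncertain. The main fits used no replicate block, which was an alternative only. Counting intervals used scipy 1.17.1, and positions and lengths are from GENCODE M21 (GRCm38). All 10 members are named. Other listed genes are named where they pass in both clones by polyA, and the genes of like pattern are the 3 closest among those whose mean log2 CPM reached 1.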

Additional observations from a re-analysis of the deposited data

Results flagged for a closer look

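The fold changes of the clones differed from each other by the test of sg5 against sg6 for *Thy1* in both library kinds and for *Mcam* in the polyA libraries. For *Thy1* the log2 difference (sg5 minus sg6) was -8.76 by polyA and -8.25 by rRNA depletion, and every sg6 library was above every sg5 library in each. For *Mcam* it was 2.12 by polyA, where each of the 3 sg5 libraries was above each of the 3 sg6 libraries, and the call is lost in 5 of the 9 fits that leave out a library.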

How the results depend on the processing

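Over 75 log2 fold changes and differences of fold changes, 1452 values were recomputed under alternatives, of which 1352 kept their direction and their side of the threshold, 36 lost a call, 23 gained one and 41 changed sign. The cause of each change was not tested, other than where the setting itself is a stricter or looser rule.

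Same-numbered libraries correlated above 0.1 in every pair for some of the groups only. Over all groups, the correlation of deviations between libraries of the same number averaged 0.260 by polyA and 0.294 by rRNA depletion, against -0.127 and -0.145 for different numbers. The deviations within a group cancel out by construction. The negative averages therefore follow largely from the positive ones and are no separate evidence of pairs. With the replicate block, the calls between the clones by rRNA depletion numbered 2, against 1 without it, since *Mcam* passed (1.63, adjusted p = 0.0163), and those in sg6 by rRNA depletion numbered 4, against 3, since *Ly6a* passed (1.09, adjusted p = 0.0466). The block changed no other call of a member.

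Counts of members called changed as follows. With glmTreat they were 2 for sg6 and 1 between the clones by polyA, and 1 for sg6 and 0 in both clones by rRNA depletion. At a log2 fold change beyond 2 and an adjusted p below 0.01 they were 1, 1 and 1 for the 3 polyA contrasts and 0 in both clones, and 1 for sg6 and 0 in both clones by rRNA depletion. By the adjusted p alone they were 6 for sg5, 7 for sg6 and 4 in both clones by polyA. With at least 10 counts in every library, the rRNA-depleted counts were 1 for sg6, 0 between the clones and 0 in both clones, *Thy1* not being tested. DESeq2 and no filter each gave 2 between the clones by rRNA depletion. DESeq2, no filter, thinning, only the 2 groups compared and genes alone each gave 4 for sg6 there, with *Ly6a* added. By polyA, glmTreat and thinning each gave 2 for sg5. Leaving out 1 library gave 2 to 3 for sg5, 3 to 4 for sg6 and 1 to 2 between the clones by polyA and, by rRNA depletion, 1 to 2 for sg5, 1 to 4 for sg6, 1 to 2 between the clones and 0 to 1 in both clones. *Eng* was called in both clones by polyA in each of the 9 such fits.

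Each value that changed sign was smaller than its standard error. Leaving out 1 library moved *Nt5e* in sg5 by polyA between -0.52 and 0.26, *Cd44* in sg5 between -0.022 and 0.20 and between the clones between -0.29 and 0.10, *Mcam* in sg5 by rRNA depletion between -0.53 and 0.15, and *Vcam1* between the clones between -0.52 and 0.71. The polyA minus rRNA-depleted differences in sg5 ran from -0.35 to 0.38 for *Ly6a*, -0.43 to 0.56 for *Vcam1*, -0.16 to 0.50 for *Cd34*, -0.31 to 1.29 for *Thy1* and -0.15 to 0.69 for *Eng*. In sg6 they ran from -0.20 to 0.21 for *Cd44*, -0.61 to 0.53 for *Cd34*, -0.13 to 0.46 for *Ly6a* and -0.37 to 0.23 for *Vcam1*. With the block they were 0.10 for *Ly6a* and 0.015 for *Vcam1* in sg5, and with RLE factors 0.013 for *Cd44* in sg6.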

Other observations

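*Thy1* and *Mcam* are neighbours, so the other genes within 200 kb of the start of *Thy1* that the tables list were read after the values of the pair were seen. By polyA there were 7 including *Mcam*, and all 7 were tested. The *Usp2*, *Rnf26*, *Cbl* and *Ccdc153* genes had log2 fold changes of 0.18, 0.03, 0.05 and 0.06 in sg6 against WT, none of which passed. *C1qtnf5*, which lies between the pair, rose in both clones, by 1.92 (adjusted p = 7.57e-05) in sg6 and 1.3 (adjusted p = 0.000732) in sg5. *Mfrp*, which overlaps *C1qtnf5* in the annotation, had 0 counts in every sg6 library by polyA, at most 47 in a WT and 74 in an sg5 library, and did not pass (adjusted p = 0.0501). In the rRNA-depleted table the rows of *Mfrp* and *C1qtnf5* hold the same values, with a log2 fold change of 1.33 in sg6 that did not pass (adjusted p = 0.134), so they cannot be told apart there.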
